A study of Vitis vinifera and Vitis riparia and Vitis amurensis with 189 samples.

Results

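Dormant buds of Cabernet Sauvignon were compared with dormant buds of Riesling on day 0, before the canes were brought into the warm. The comparison rests on the 6 libraries that the labels place at day 0 of these cultivars, 3 of Cabernet Sauvignon and 3 of Riesling, out of 189 libraries in the series. Both are cultivars of Vitis vinifera, grown in a commercial vineyard under standard conditions per the labels. Buds of day 0 were cut from freshly pruned canes and frozen in liquid nitrogen, before any time in the warm. The series also followed both cultivars and the wild species V. amurensis and V. riparia at room temperature until budburst. Those libraries serve here only to show how the day 0 differences stand elsewhere. Each genotype is represented by the vines of 1 site, and the labels do not say how many vines of each cultivar were cut. The labels speak of replicate buds and not of separate vines, so p-values measure only the spread between these samples, which may be technical. Cultivar and place in the vineyard cannot be told apart.

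A grapevine bud holds a compressed shoot with leaf and often flower primordia under scales. In winter it is dormant: it first needs a period of chilling, and after that only warmth to lose its cold hardiness and break. Cabernet Sauvignon is a black-berried cultivar known for late budburst, and Riesling is a white-berried cultivar known for earlier budburst and good cold hardiness among V. vinifera. The genes are given by identifiers of the Vitvi form. None of the 42394 identifiers was found in the gene table used here, so genes have no names or functions below, no sequence is shown, and the bud label could not be checked against marker genes of the tissue. At most 2 genes are named in each direction.

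The Cabernet Sauvignon libraries held 5379721, 3994302 and 12323633 counts in genes (replicates 1 to 3), and the Riesling libraries held 6379923, 3670478 and 4040393. An amount of 3 counts, taken as the smallest visible amount, equals 0.243 to 0.751 CPM, counts scaled to a common library total, in the Cabernet Sauvignon libraries and 0.470 to 0.817 CPM in those of Riesling. The share of records outside annotated genes was 14.5%, 11.8% and 21.1% in Cabernet Sauvignon and 13.7%, 11.7% and 20.03% in Riesling, so that its order over the replicate numbers was the same in both cultivars. The ambiguous share, the share aligned to several places and the share in the 10 most abundant genes also had the same order over the numbers in both. None of 6 library measures (gene counts, genes detected, and shares of records outside genes, ambiguous, aligned to several places, or in the 10 most abundant genes) differed between the cultivars in an exact permutation test, two-sided (p from 0.6 to 1, where 3 against 3 libraries cannot go below 0.1). With 10 marker genes per cultivar taken from days 1 to 3, the share of marker counts that came from the labelled cultivar's set was 99.46% to 100% in the 6 day 0 libraries. This was not so on days 5, 8 and 11, where that share was 0% to 7.81% in the 21 libraries. Among the other 65 libraries from day 4 on, 3 were at 68.9% to 76.2% (Cabernet Sauvignon day 6 replicates 1 and 4 and Riesling day 4 replicate 2).

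The dormant buds of the cultivars differed in 1134 genes, of which 635 were higher and 499 were lower in Cabernet Sauvignon. That is 7.34% of the 15447 genes tested by edgeR's quasi-likelihood test at a Benjamini-Hochberg adjusted p under 0.05, with 4.11% higher and 3.23% lower. Without adjustment, 3228 genes had a p under 0.05. The differences were often large. At least 2-fold was reached by 886 genes (5.74% of those tested), at least 4-fold by 382 and at least 32-fold by 99, with 56 of the last higher and 43 lower in Cabernet Sauvignon. Where a cultivar had no or few counts, the fold comes from the fit and the depth cannot show its size. The median difference of the called genes was 1.52 on the log2 scale for those higher and -1.60 for those lower, whereas the median absolute difference of all tested genes was 0.27. The 3 values of each cultivar did not overlap in 1132 of the 1134 called genes and in 25.9% of all tested genes. In buds, which hold several tissues, a lower level cannot be told apart from fewer cells that use the gene. In this design the count depends on each library: it was 653 without Riesling replicate 1 and 742 without Riesling replicate 3, and the number lower in Cabernet Sauvignon was 328 without Riesling replicate 2. It was 2328 of 26190 genes without the expression filter and 724 when the day 0 libraries of the wild species shared the estimate of spread, and no gene called here was called in the opposite direction in either.

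**Figure D1:**
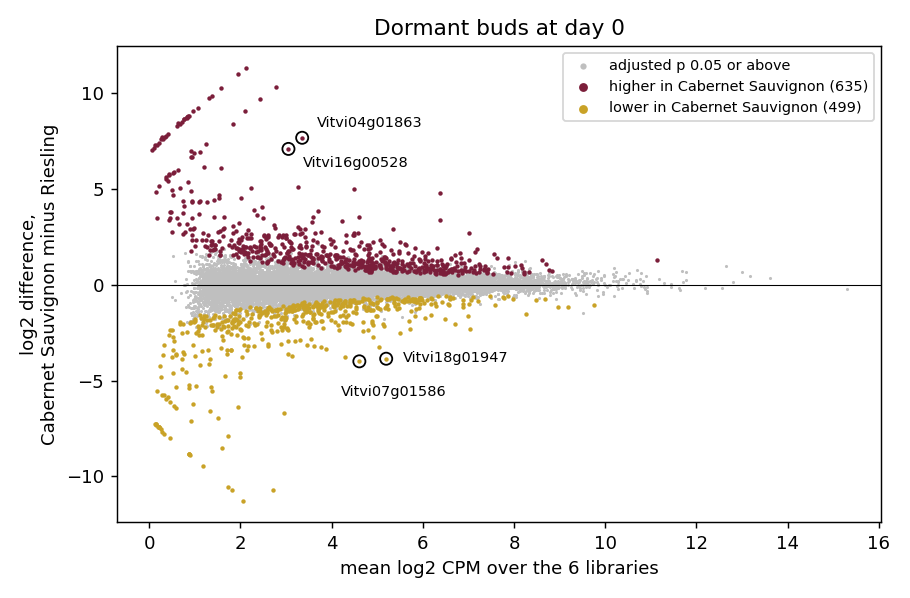
Log2 difference between Cabernet Sauvignon and Riesling at day 0 (vertical axis, positive where Cabernet Sauvignon was higher) against the mean log2 CPM of the 6 libraries (horizontal axis), 1 point per gene tested. The 635 genes higher and the 499 lower in Cabernet Sauvignon are coloured, and circles mark the named genes. Differences beyond 8 on the log2 scale lie among genes of low mean level.

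Libraries of the same cultivar resembled each other more than libraries of different cultivars. Pearson's r of log2 CPM across genes was 0.955 to 0.970 within Cabernet Sauvignon, 0.961 to 0.968 within Riesling and 0.892 to 0.929 between the cultivars. The biological coefficient of variation of a pair, the spread beyond counting noise, was 0.188 to 0.272 within Cabernet Sauvignon, 0.204 to 0.209 within Riesling and 0.284 to 0.445 between them. The first principal component took up 55.8% of the variance and had scores from 39.9 to 50.6 in the Cabernet Sauvignon libraries and from -46.6 to -40.2 in those of Riesling. On the second component, with 18.8%, replicates 1 to 3 lay at 25.9, 20.8 and -41.2 in Cabernet Sauvignon. In Riesling they lay at 26.3, -14.4 and -17.3, the same order over the replicate numbers. Cabernet Sauvignon replicate 3 was the deepest library and the one with the highest share outside genes. Without that library 1067 genes were called, and 848 of them were among the 1134 in the same direction.

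Genes of low level were called more often than genes of high level, and the differences called among them were larger. Among the 3862 genes with the lowest level (average log2 CPM from 0.64 to 3.02) 9.74% were called, and these had a median absolute log2 difference of 2.34. Among the 3862 with the highest level (average log2 CPM from 5.85 to 15.35) 5.15% were called, and their median was 0.90. Level here is the average over both cultivars, and the expression filter keeps genes counted in a single cultivar. A gene with almost no counts in a cultivar has a lower average because it differs. Part of this pattern can thus be built in by how the sets were made, and how much was not tested. The split by direction was not the same at both ends. In the lowest set 181 genes were higher and 195 lower in Cabernet Sauvignon, and in the highest set 139 were higher and 60 lower.

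Vitvi04g01863 and Vitvi16g00528 had the largest excess in Cabernet Sauvignon among the 409 genes higher there whose cultivars did not overlap and whose log2 CPM averaged 3 or more. Vitvi04g01863 stood at 134, 111 and 178 CPM in the Cabernet Sauvignon libraries, and at 1.15, 0 and 0.5005 CPM in those of Riesling. The Riesling values rest on 10 counts over the 3 libraries, against 3156 in Cabernet Sauvignon. Its log2 difference was 7.67 ± 0.42 (SE), with an edgeR adjusted p of 3.51e-06. It was 8.94 without Riesling replicate 1, which holds 8 of the 10 Riesling counts. Vitvi16g00528 had 49.3, 86.2 and 99.3 CPM in Cabernet Sauvignon and 0.431, 0.831 and 0.5005 CPM in Riesling. Each Riesling library held 2 or 3 counts of it, so the gene was close to the smallest visible amount there. The log2 difference was 7.09 ± 0.41 (SE; edgeR adjusted p = 4.46e-06).

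Vitvi07g01586 and Vitvi18g01947 had the largest deficit in Cabernet Sauvignon among 269 such genes lower there. The 43 genes at least 32-fold lower in Cabernet Sauvignon were not among the 269. Vitvi07g01586 stood at 4.95, 14.2 and 2.26 CPM in Cabernet Sauvignon, and at 109, 106 and 89.6 CPM in Riesling. It averaged 7.15 ± 6.29 CPM in Cabernet Sauvignon and 102 ± 10.5 CPM in Riesling (SD, n = 3 each), so that the spread was large relative to the mean in Cabernet Sauvignon. The log2 difference was -3.99 ± 0.48 (SE; edgeR adjusted p = 0.000543), and -4.90 without Cabernet Sauvignon replicate 2, the highest of that cultivar. Vitvi18g01947 had 9.36, 6.99 and 11.9 CPM in Cabernet Sauvignon and 124, 146 and 152 CPM in Riesling. Its log2 difference was -3.86 ± 0.22 (SE; edgeR adjusted p = 4.46e-06). Each of these 4 genes had counts in at least 2 of the 3 libraries of the cultivar where it was low. In Riesling, Vitvi04g01863 had 8, 0 and 2 counts and Vitvi16g00528 had 3, 3 and 2. These are mostly at or below the smallest visible amount, so presence of these genes in Riesling is not settled.

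**Figure D2:**
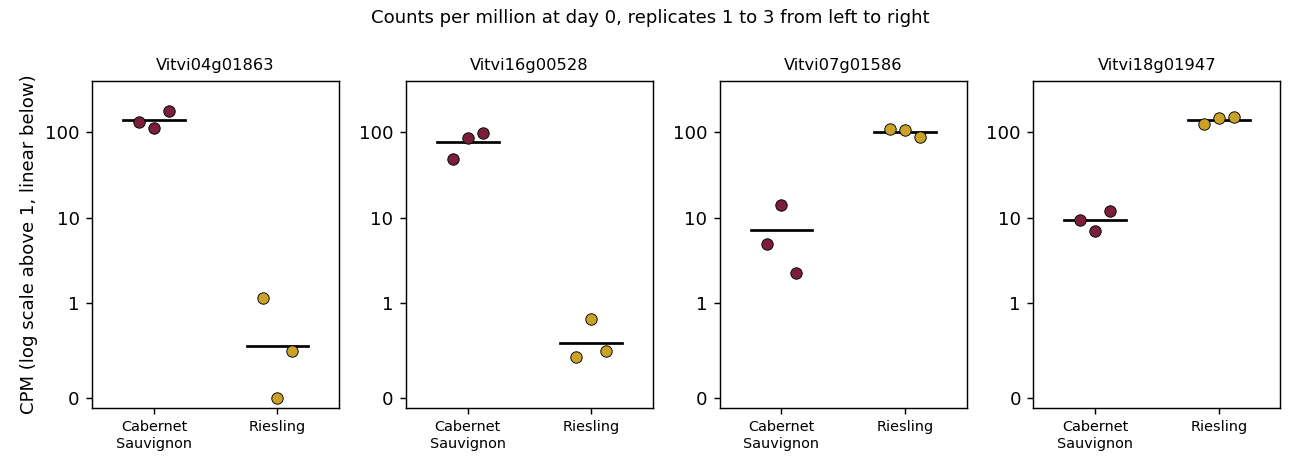
CPM (vertical axis, logarithmic above 1 and linear below) of the 4 named genes in each day 0 library. Points are replicates 1 to 3 from left to right, Cabernet Sauvignon left and Riesling right, and bars are means. In no panel do the cultivars overlap.

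The wild species stood at different places for these genes at day 0. Vitvi04g01863 was at 12.1, 13.6 and 4.24 CPM in V. amurensis and at 38.2, 33.6 and 20.1 CPM in V. riparia, in replicates 1 to 3, on a scale common to replicates 1 to 3 of the 4 genotypes at day 0. Higher-numbered day 0 libraries of the wild species were not used here. Vitvi16g00528 was at 58.1, 56.6 and 89.1 CPM in V. amurensis and at 62.1, 210 and 219 CPM in V. riparia. Vitvi07g01586 lay at 21.6, 38.9 and 4.24 CPM in V. amurensis and 42.1, 37.8 and 17.7 CPM in V. riparia. Vitvi18g01947 separated the wild species, with 210, 209 and 254 CPM in V. amurensis and 0.896, 1.26 and 9.63 CPM in V. riparia. The V. riparia values rest on 3, 6 and 12 counts, and the difference between the wild species was not tested.

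Some genes were counted in one cultivar and not in the other. At least 10 counts in every Cabernet Sauvignon library and 0 in all Riesling libraries were found for 32 genes. The opposite pattern was found for 19 genes. In the day 0 test 28 of the 32 and all 19 were called. Their mean level in the cultivar that had them ran from 2.38 to 53.6 CPM (here per total gene counts, without TMM scaling) for the Cabernet Sauvignon genes and from 3.33 to 53.0 for the Riesling genes. Of the 32 genes, 21 had at least 3 counts over day 0 replicates 1 to 3 of V. amurensis, 17 had them in V. riparia and 11 in neither. Of the 19, 14 had them in V. amurensis, 13 in V. riparia and 3 in neither. By this rule, leaving out a library can only keep or raise these numbers. The first was 52 without Cabernet Sauvignon replicate 2, the shallowest library of that cultivar. The second was 34 without Cabernet Sauvignon replicate 3, the deepest, and the first was then 33.

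These genes stayed far apart in average level at later days, in libraries that did not enter their choice, but many did not stay at 0. On the days other than 5, 8 and 11, 8 (day 7) to 22 (day 13) of the 32 genes had 0 counts in Riesling. Of the 19 genes, 3 (day 6) to 16 (day 2) had 0 counts in Cabernet Sauvignon. The averages below can rest on a few genes. On the 12 later days other than 5, 8 and 11, the 32 genes averaged between 6.02 and 10.5 CPM in Cabernet Sauvignon and between 0.0810 and 1.02 in Riesling. The highest Riesling value came from day 4, which includes the library with markers of both cultivars. The 19 genes averaged between 0.0755 and 2.53 CPM in Cabernet Sauvignon and between 13.5 and 29.3 in Riesling, and the 2.53 came from day 6, with the other mixed library. On days 5, 8 and 11 the direction was reversed under the labels, and the 32 genes averaged 0.0696 to 0.249 in libraries labelled Cabernet Sauvignon and 8.24 to 10.9 in those labelled Riesling.

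Called genes occurred under every identifier prefix, the number that follows Vitvi. Prefix 00 had the largest share, with 17 genes higher and 8 lower in Cabernet Sauvignon among 111 tested, or 22.5%. Among the other prefixes the share ran from 4.36% for prefix 06 to 10.8% for prefix 16, against 7.34% of all genes tested. Some called genes carried consecutive numbers. Runs of at least 2 consecutive numbers with the same direction took up 66 of the 635 genes higher in Cabernet Sauvignon and 48 of the 499 lower, in 30 and 22 runs. The positions of the genes were not checked, and no chance level was computed for such runs.

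Of these runs, 2 patterns were chosen for description after their values were seen. Under prefix 16, 3 of the 5 runs of at least 3 genes higher in Cabernet Sauvignon fell within 22 consecutive numbers. Of the 19 tested genes with these numbers 13 were higher in Cabernet Sauvignon and 0 were lower. The 10 genes in the runs had log2 differences from 1.56 to 3.55, and together held 6137 counts in Cabernet Sauvignon and 672 in Riesling. Under prefix 19, 4 consecutive genes were lower in Cabernet Sauvignon, where they held 1 count in all, against 2092 in Riesling.

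**Figure D3:**
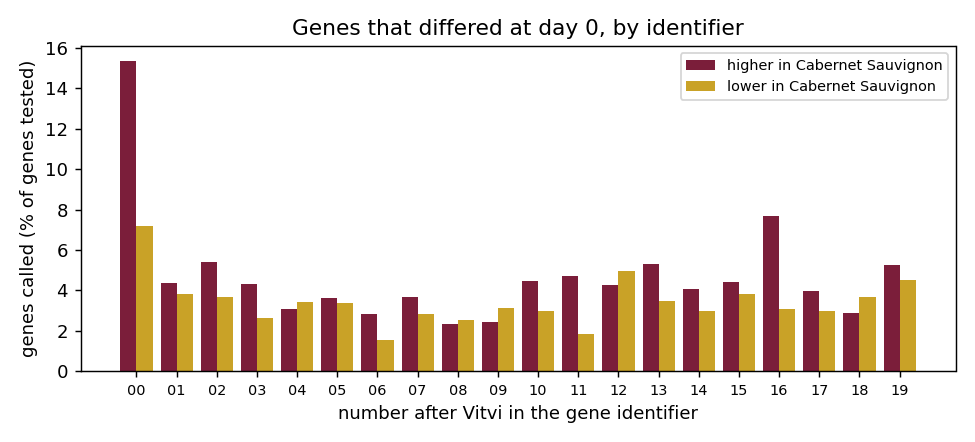
Share of tested genes that were called at day 0 (vertical axis, %) by the number after Vitvi in the identifier (horizontal axis), with genes higher in Cabernet Sauvignon left and genes lower there right in each pair. Prefix 00, with 111 genes tested, has the tallest bars, and prefix 16 has the largest excess of genes higher in Cabernet Sauvignon among the others.

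Whether the day 0 differences recurred was measured at day 1, in libraries that the day 0 test did not use. Of the 1134 genes, 1127 were tested there. Of those higher in Cabernet Sauvignon at day 0, 580 of 633 (91.6%) were higher at day 1 too, and of those lower, 463 of 494 (93.7%) were lower. The day 0 direction passed edgeR's test at day 1 for 338 genes, or 30.0%, and 0 passed in the opposite one, where 3.96% of all genes passed in either direction. They were 190 of the 633 genes higher and 148 of the 494 genes lower in Cabernet Sauvignon at day 0, where 2.03% of all genes were higher and 1.92% lower at day 1. Among genes with a fitted difference of at least 32-fold at day 0, 86 of 98 passed at day 1, whereas 18 of 248 passed among those under 2-fold. The median difference of the genes was smaller at day 1, at 0.91 for those higher and -1.03 for those lower, than at day 0, the day they were chosen on. The change of the cultivar difference between day 0 and day 1 was then tested itself. By edgeR's quasi-likelihood test 0 of 17009 genes (0%) passed, and 822 had an unadjusted p under 0.05. The count was 158 without the expression filter.

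Later days were described in the same way, with no test of change between them. Genes higher in Cabernet Sauvignon at day 0 had a median of 0.85 at day 2, 0.58 at day 7, 0.18 at day 12 and 1.16 at day 15. At day 12, 62.1% of them had the day 0 sign. Genes lower in Cabernet Sauvignon had medians of -0.90, -0.81, -0.83 and -0.52 on these days, and 80.4% had the day 0 sign at day 12. The day 0 direction passed for 303 genes at day 2 and 321 at day 3, where 3.45% and 4.02% of all genes passed. On days 7, 9 and 10 it passed for 215, 230 and 213 of the 1127 genes. On these days 2.73%, 2.7% and 4.08% of all genes passed in either direction. On days 13 and 14 the day 0 direction passed for 181 genes each, where 2.31% and 2.84% of all genes passed in either direction. On day 12, 191 of the 1127 genes passed in the day 0 direction and 6 in the opposite one, where 2.61% of all genes passed. Day 15, the last day of Riesling, stood apart, with 30.5% of all genes passing between the cultivars. Of the 1127 genes, 453 then passed in the day 0 direction and 78 in the opposite one. Over the 12 days other than 5, 8 and 11, 435 of the 1127 genes had the day 0 sign on every day. Of the 1127, 73 passed in the day 0 direction on every one of these days and 429 on none. Neither these counts nor the shares with the day 0 sign have a value over all genes beside them, so they describe the list only. On days 5, 8 and 11 the genes went the other way under the labels, with 216, 202 and 239 passing opposite to day 0 and 1, 2 and 9 in its direction, where 2.54%, 2.42% and 4.2% of all genes passed. On day 4 and day 6, 152 and 184 genes passed in the day 0 direction. Of all genes, 1.45% and 2.2% passed in either direction on these days. Without the 2 libraries that hold markers of both cultivars, 157 and 192 genes passed in the day 0 direction.

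**Figure D4:**
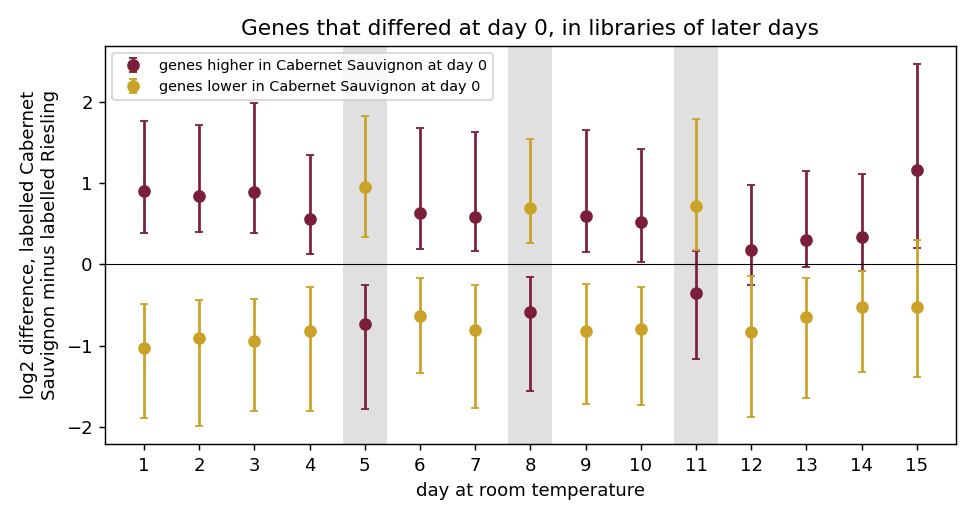
Log2 difference between libraries labelled Cabernet Sauvignon and those labelled Riesling (vertical axis) on days 1 to 15 (horizontal axis) for the 633 genes higher and the 494 genes lower in Cabernet Sauvignon at day 0. Points are medians and bars run between the quartiles. Shaded days are 5, 8 and 11, where both medians change sides.

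The named genes differed in how long they stayed apart. Vitvi04g01863 had daily means from 24.8 to 222 CPM in Cabernet Sauvignon and from 1.75 to 9.82 CPM in Riesling on the 12 days other than 5, 8 and 11, on a scale common to all days on which its day 0 means were 178 and 0.664 CPM. In Cabernet Sauvignon it was at 33.2 ± 10.2 CPM on day 1 (SD, n = 3). The drop in the cultivar difference from day 0 to day 1, 3.87 ± 0.80 on the log2 scale (SE), did not pass in edgeR's interaction test (adjusted p = 0.375). Vitvi16g00528 was higher in Cabernet Sauvignon on each of these days, and its level there ended at 7.83 ± 2.90 CPM on day 15, when it was listed at 0 in all 3 Riesling libraries. Vitvi07g01586 kept its deficit, with daily means from 3.79 to 58.6 CPM in Cabernet Sauvignon and from 89.1 to 393 CPM in Riesling. The 58.6 is the mean of day 6, where the library with markers of both cultivars had 153 CPM.

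For Vitvi18g01947 the cultivars lay closer together at later days. In Riesling it was at 168 ± 15.7 CPM on day 0, 99.3 ± 33.5 on day 1, 37.5 ± 9.28 on day 2 and 23.8 ± 4.59 on day 4 (SD, n = 3 each). In Cabernet Sauvignon it was at 11.9 ± 3.54, 9.73 ± 3.99, 8.85 ± 3.96 and 6.80 ± 5.95 CPM on these days. The difference passed on days 1, 2 and 3, with log2 values of -3.38 ± 0.48, -2.14 ± 0.47 and -1.81 ± 0.46 (SE; edgeR adjusted p = 8.65e-07, 0.00175 and 0.00891). It did not pass on day 4 (edgeR adjusted p = 0.0893) or on any later day. Whether the cultivars' change from day 0 to day 4 differed was not tested.

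**Figure D5:**
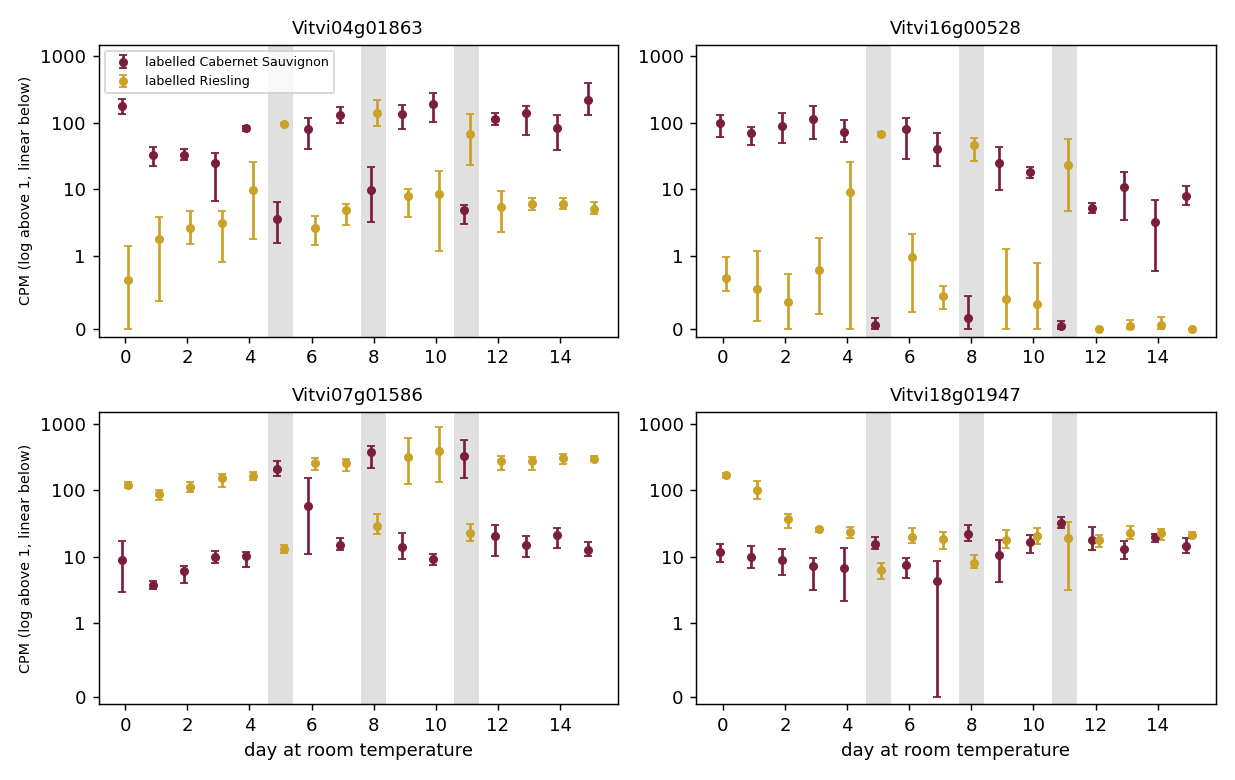
CPM (vertical axis, logarithmic above 1 and linear below) of the named genes by day at room temperature (horizontal axis). Points are daily means of the libraries numbered 1 to 3 that exist for that day, and bars run from the lowest to the highest library, with the libraries labelled Cabernet Sauvignon left and those labelled Riesling right. On the shaded days 5, 8 and 11 the labels trade levels for Vitvi04g01863, Vitvi16g00528 and Vitvi07g01586, and Vitvi18g01947 in Riesling approaches Cabernet Sauvignon by day 4.

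Whether one cultivar's dormant buds lay further along the course of forcing was measured on axes taken from libraries of the wild species. The axis is the mean log2 change from day 0 to the last day over the genes that changed, scaled so that 1 is the distance that species travelled. On the axis of V. amurensis (day 0 to 10, 9364 genes) the Cabernet Sauvignon libraries averaged 0.00897 ± 0.0187 and the Riesling libraries 0.0292 ± 0.0155 (SD, n = 3 each). The difference, -0.0202, had an exact permutation p of 0.3, two-sided. It was -0.00996 without Cabernet Sauvignon replicate 3 and -0.0117 without Riesling replicate 1. On the axis of V. riparia (day 0 to 12, 10830 genes) Cabernet Sauvignon averaged 0.0788 ± 0.0260 and Riesling 0.1001 ± 0.0309 (SD, n = 3 each), a difference of -0.0213 with an exact permutation p of 0.4. That difference was -0.00621 without Cabernet Sauvignon replicate 3, -0.00617 without Riesling replicate 1 and -0.0371 without Riesling replicate 2. The cultivars overlapped on both axes, and with 3 against 3 libraries the smallest possible p is 0.1. Differences between the species may also enter the positions, so only the difference between the cultivars was compared.

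The genes that differed at day 0 were also looked up in the forcing response of the wild species. Of 545 genes higher in Cabernet Sauvignon that were tested in V. amurensis, 186 (34.1%) fell and 110 (20.2%) rose by its last day. Of 418 genes lower in Cabernet Sauvignon, 129 (30.9%) fell and 91 (21.8%) rose. Over all genes tested in both comparisons, 27.1% fell and 20.4% rose. In V. riparia 247 of 526 (47.0%) and 152 of 389 (39.1%) fell, against 33.1% of all genes, and 105 (20%) and 100 (25.7%) rose, against 25% of all genes. In all, 52.1% of genes passed in V. amurensis and 62% in V. riparia. These shares are descriptions of the lists, without a test.

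At day 0 both wild species were nearer to the cultivar with the lower level in most genes of either list. For the 635 genes higher in Cabernet Sauvignon, V. amurensis was nearer to Riesling in 65.7% and V. riparia in 62.5%, against 54.4% and 52% of all genes tested. For the 499 genes lower in Cabernet Sauvignon, V. amurensis was nearer to Cabernet Sauvignon in 54.7% and V. riparia in 56.7%, against 45.6% and 48% of all genes tested. V. amurensis lay below both cultivars in 280 of the 635 genes and in 158 of the 499, and above both in 94 and 106. V. riparia lay below both in 256 and 156 and above both in 116 and 119. Identifiers of the Vitvi form belong to V. vinifera, and loss of wild reads in alignment to that species was not tested.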

How the data were processed

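The authors deposited raw counts per gene for each library, with 42394 gene rows and 5 bookkeeping rows, which were left out of library sizes. Per the submitters' processing notes, cutadapt, STAR, HTSeq and DESeq2 were used. Versions, genome build, annotation and strand setting are not given in the sources used here. Reads of near-identical genes may have been split or set aside. Libraries were made by a modified published protocol, per the labels' protocols.

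Groups came from the library titles. The 6 day 0 libraries were fitted in edgeR 4.0.16 (R 4.3.3) with TMM normalization, its expression filter and cultivar as the only factor. Standard errors were derived from the F statistic. CPM at day 0 is TMM-scaled. For the wild species, replicates 1 to 3 were used. Later days (replicates 1 to 3 only) had 1 mean per cultivar and day in one fit. Log2 CPM used a prior count of 2. Day 0 against day 1 was tested as an interaction. DESeq2 1.42.0, other normalization, no filter, other sets of libraries, a covariate and a replicate block were alternatives. Python 3.11.15 with SciPy 1.17.1 gave the permutation tests of library measures.

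The named genes are the 2 highest and 2 lowest log2 differences among called genes whose cultivars do not overlap and whose log2 CPM averages 3 or more. The comparison and its gene lists were chosen with earlier results of these data known.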

Additional observations from a re-analysis of the deposited data

Results flagged for a closer look

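Under the labels, the cultivar difference of named genes had the opposite sign on days 5, 8 and 11 from day 0, with every library of one label on the other side of every library of the other. The difference between days was not tested. Vitvi04g01863 had log2 differences, labelled Cabernet Sauvignon minus labelled Riesling, of -5.16, -3.85 and -3.72 on these days. Those of Vitvi16g00528 were -9.05, -8.04 and -8.33, and those of Vitvi07g01586 were 3.97, 3.67 and 3.89. For Vitvi18g01947 only days 5 and 8 met this rule, with 1.31 and 1.41, and neither passed in edgeR's test (adjusted p = 0.303 and 0.115). The libraries of these days carry the markers of the cultivar that is not on their label.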

How the results depend on the processing

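All 52 values recomputed for the 4 named genes under the alternatives had the direction of the main value and passed the test. The count of 1134 genes (635 higher, 499 lower) became 2328 (1294 and 1034) without the expression filter, 2301 (1276 and 1025) with the replicate block and 724 (417 and 307) when the wild day 0 libraries shared the estimate of spread. Without 1 library it ran from 653 to 1067, with 349 to 556 higher and 304 to 511 lower. DESeq2 called 1387 genes, 1102 of them shared with the main edgeR fit in the same direction. Of the 724 genes, 665 were shared in this way. A fit with the other days of the cultivars called 1042 genes, 663 of them shared. With the share outside genes as covariate 1405 were called, 1116 of them shared. The change from day 0 to day 1 covered 158 genes without the filter and 3 with the replicate block. Genes counted in one cultivar only were 58 and 33 (Cabernet Sauvignon, Riesling) with a minimum of 5 counts, 17 and 8 with 20, and 33 to 52 and 19 to 34 without 1 library. The causes of these shifts were not tested, beyond the fewer libraries and the changed minimum.

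Replicate numbers recur in both cultivars. Deviations from the cultivar means correlated at 0.572, 0.0612 and 0.286 between libraries numbered 1, 2 and 3. Of 6 libraries, 4 correlated best with their own number, and several library shares had the same order over the numbers in both cultivars. The labels give the numbers no meaning across cultivars, so the main fit did not take them as pairs. Whether they mark shared handling was not tested. Depth limits statements about genes near 3 counts per library.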
